A study of Sus scrofa with 24 samples.

Results

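The transcripts described here encode 9 helix-loop-helix proteins of neural cells: the basic helix-loop-helix (bHLH) factors BHLHE22, NEUROD1, NEUROD2, NEUROD6, HES1 and HES5, and the inhibitors ID2, ID3 and ID4. They were chosen by gene symbol. BHLHE22 was selected on its measured values, because it was higher in small piglets, and the others were added as relatives in the same family. Of the 9 genes, 7 had an identifier among the 38882 genes counted in each library, and all 7 were among the 16326 genes abundant enough to be tested. The identifiers of NEUROD6 and HES5 had no match there, so both are not analysed here.

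bHLH factors bind E-box or N-box sequences as dimers through a basic region and a helix-loop-helix. NEUROD1, NEUROD2 and NEUROD6 are activators that drive differentiation of excitatory neurons, including granule cells and pyramidal cells of the hippocampus, while HES1 and HES5 are repressors switched on by Notch signaling in neural progenitors and glia. ID proteins lack the basic region, respond to bone morphogenetic protein (BMP) signaling and keep other bHLH factors from binding DNA. BHLHE22 is a repressor of the OLIG-related branch that acts with PRDM8 in projection neurons, and the cadherin gene CDH11 is a known target.

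RNA of the hippocampus was sequenced from 24 piglets aged 14 days, which were born small (SGA) or appropriate (AGA) for gestational age and fed either a control formula (CON) or a hydrolyzed fat formula (HF). All were offspring of PIC Camborough dams and PIC 359 sires. The CON formula held its fat as triglyceride oils, and the HF formula replaced a part of them with free fatty acids, monoacylglycerol palmitate and lecithin. Both sizes were fed both diets, with 6 piglets in each of the 4 groups, arranged as 12 sex-matched pairs of 1 SGA and 1 AGA littermate on the same diet. Replicates 1 to 3 came in cohort 1 and replicates 4 to 6 in cohort 2. SGA status here is naturally low birth weight, and no untreated or sow-fed group was analysed here.

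Libraries held between 6017336 and 9284355 reads on genes, with a median of 7346072, and the members had from 85 counts (NEUROD1) to 5101 counts (NEUROD2) in a library. Expression is given as CPM (counts scaled to a common library total) on library sizes scaled by the trimmed mean of M-values (TMM). The summed level of 5 excitatory neuron markers was 6204 to 11370 CPM and that of 4 CA pyramidal markers 104.8 to 335.4 CPM. Of 5 dentate granule cell markers, PROX1 averaged 48.1 CPM, C1QL2 21.9 CPM, DSP 6.26 CPM and CALB1 0.604 CPM. TDO2 was at 0 in all libraries, as was the neuronal progenitor marker EOMES, where 3 counts would be 0.323 to 0.499 CPM. Whether the gene annotation had a part in these values of 0 was not tested. The library AGA CON replicate 2 had the lowest excitatory neuron sum and the highest astrocyte sum (12650 CPM), and SGA HF replicate 4 held 361.4 CPM of pituitary markers against 18.9 to 36.7 CPM elsewhere, so the size effects were also fitted without either library. In sums of CPM the abundant markers weigh most, and GFAP averaged 8225 CPM of the 9411 CPM of the astrocyte sum. These are whole-tissue samples, in which fewer cells of a type and less RNA per cell cannot be told apart.

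To compare the genes with each other, levels were divided by transcript length (RPKM, which is CPM per kilobase of transcript). NEUROD2, the activator of mature excitatory neurons, had the highest level, with a median of 171.9 RPKM over the 24 libraries (117.2 to 202.2). ID2 followed with a median of 96.8 RPKM (74.7 to 191.2) and ID4 with 60.2 RPKM (49.9 to 89.3). ID3 had a median of 23.7 RPKM, BHLHE22 of 15.4 RPKM, HES1 of 14.7 RPKM and NEUROD1, the lowest, of 7.50 RPKM. Each gene in this order was above the next in 24 of 24 libraries, except that ID3 was above BHLHE22 in 23 and BHLHE22 above HES1 in only 14, so the last pair was not separated beyond its spread. The RNA was polyA-selected, and the paper reports a mid-range average RNA quality number, which it puts down to pre-spliced RNA. Bias from this or from the annotated lengths can be shared by all libraries, so agreement between libraries does not test the order between genes. NEUROD2 lay at the 96.6th percentile of RPKM among tested genes and NEUROD1 at the 56.5th.

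The members also differed in how much they varied between piglets. The coefficient of variation within groups (group means removed) was 22.4% for ID3, 20.3% for ID2 and 18.2% for BHLHE22. The 500 genes nearest to each of them in level had median values of 14.2%, 11% and 13.9%. NEUROD2 (12.6%) and HES1 (14.7%) lay close to genes of like level, whose medians were 11.9% and 14.3%, while NEUROD1 had 19.7% against 15.1% and ID4 16.8% against 10.9%. Over all 24 libraries the value for BHLHE22 was 22.6%, which includes the size difference it was chosen on.

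BHLHE22 (gene 100739687) lies on chromosome 4 at chr4:75987017-75988825 of the Sscrofa10.2 build, on the minus strand, as a single exon of 1809 bases with no other annotated gene over it. In AGA CON piglets it ranged from 21.2 to 29.5 CPM with a median of 23.8, and in SGA CON piglets from 22.7 to 41.0 CPM with a median of 32.7. In AGA HF piglets it ranged from 16.3 to 31.0 CPM with a median of 22.4, and in SGA HF piglets from 27.5 to 37.2 CPM with a median of 30.6. SGA piglets were high and AGA piglets low on both diets, yet the groups overlapped: 4 of 6 SGA CON piglets lay above all AGA CON piglets, and 3 of 6 SGA HF piglets lay above all AGA HF piglets. Group means were 1.30 times as high in SGA as in AGA on CON and 1.38 times as high on HF.

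**Figure D1:**
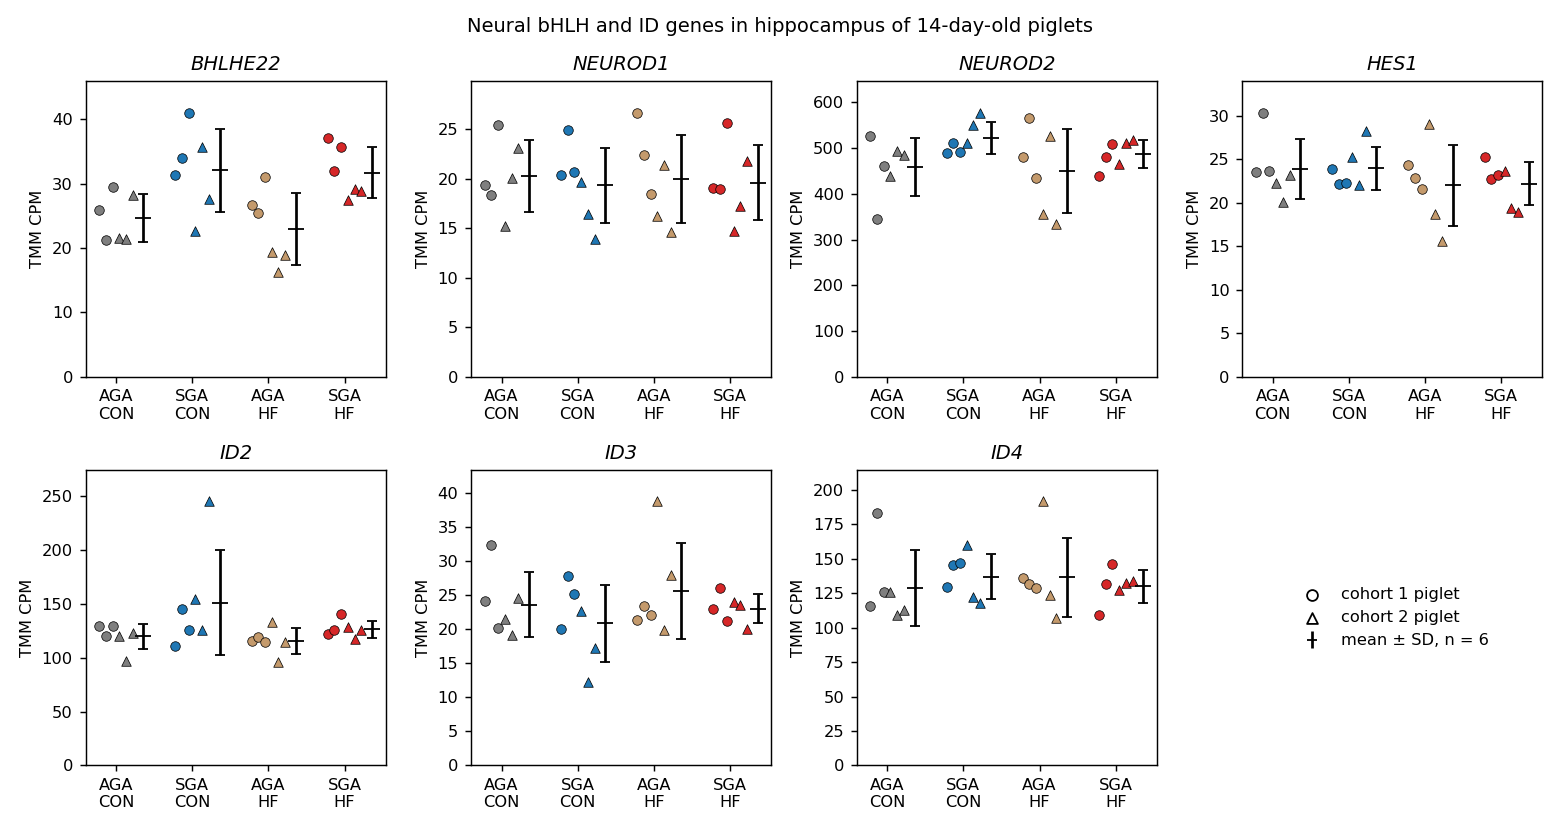
TMM CPM of the 7 genes in each piglet (circles, cohort 1; triangles, cohort 2) by group, with the mean ± SD of 6 piglets beside the points and each vertical axis starting at 0. BHLHE22 means were 32.1 and 31.7 CPM in the SGA groups and 24.7 and 22.9 CPM in the AGA groups, whereas the groups of NEUROD1 and HES1 lay side by side.

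Because BHLHE22 was chosen on this contrast, its size difference is a description without a test. The littermate difference (SGA minus AGA, log2 CPM) averaged 0.43 ± 0.27 (SD, n = 12 litters), with the SGA littermate higher in 11 of 12. The exception was CON replicate 6, at -0.03. By diet the mean was 0.36 in CON litters, where 5 of 6 were up, and 0.49 in HF litters, where all 6 were up. By cohort it was 0.40 (6 of 6 up) and 0.45 (5 of 6 up), so the difference was of like size in both.

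In the model of the 4 groups, sex and 5 surrogate variables (edgeR's quasi-likelihood fit), the size effect on BHLHE22 was 0.35 on the log2 scale (SE 0.087). The SE does not account for the choice of the gene on this contrast. The fitted log2 difference was 0.30 (SE 0.119) on CON and 0.40 (SE 0.12) on HF. With the litter as a replicate block the estimates were 0.37 and 0.49 (SE 0.109 each), and 0.43 (SE 0.077) over both diets. The estimate over both diets ran from 0.32 to 0.46 over the refits, and was 0.34 without the library AGA CON replicate 2 and 0.35 without SGA HF replicate 4. The refits reuse the values the gene was chosen on, so their shared sign is no further support.

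The other 6 members were tested for size against a threshold of 0.4 on the adjusted p (Benjamini-Hochberg FDR over 7 contrasts), which sets the differentially expressed genes (DEGs). With edgeR 0 of these 6 passed, beside 0.478% of all genes tested, and 2 (NEUROD2 and ID4) had an unadjusted p under 0.05, beside 10.6% of all genes. limma-voom called 0 of the 6, beside 0.325% of all genes, and DESeq2 called NEUROD2, beside 1.29%. With the replicate block 0 of the 6 passed over both diets, on CON or on HF, beside 2.57%, 1.26% and 0.888% of all genes.

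Cell type markers moved with size alongside BHLHE22. The sum of 6 oligodendrocyte markers was lower in the SGA littermate in 11 of 12 litters, at 11440 to 22480 CPM in SGA and 13610 to 24930 CPM in AGA, and none of the 6 was called in the size contrast. The sum of 4 CA pyramidal markers was higher in the SGA littermate in 10 of 12, at 201.7 to 335.4 CPM in SGA and 104.8 to 329.6 CPM in AGA, again with none called, and that of 5 excitatory neuron markers was higher in 7 of 12, with CAMK2A called. Their part in the BHLHE22 difference was not tested. Across libraries centred on their group means, BHLHE22 had a Pearson r of -0.246 with the oligodendrocyte sum, 0.20 with the CA pyramidal sum and 0.022 with the excitatory neuron sum. In cohorts 1 and 2 r was -0.039 and 0.351 with the oligodendrocyte sum, and 0.509 and 0.198 with the CA pyramidal sum. With the excitatory neuron sum it was 0.36 and -0.044, so these relations differed between cohorts.

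Diet did not move BHLHE22 detectably. HF minus CON was -0.06 in log2 CPM over litter means (exact permutation test of 6 against 6 litters, two-sided, p = 0.623), and the fitted value was -0.02, with an interval from -0.20 to 0.16. The littermate difference was 0.13 larger on HF than on CON (exact permutation p = 0.433), and the fitted interaction was 0.10 with an interval from -0.24 to 0.44.

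The partner PRDM8 and the target CDH11 were both tested. PRDM8 differed by 0.10 (SE 0.083) and CDH11 by 0.05 (SE 0.056) between SGA and AGA on the log2 scale, with adjusted p of 0.871 and 0.91 from edgeR's quasi-likelihood test, so neither passed.

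Of the NEUROD activators, NEUROD2 (gene 102167934) lies on chromosome 12 at chr12:23162856-23166874, plus strand, in 6 exon entries of 2856 bases, with 1 opposite-strand gene inside it that shares no exon bases. In AGA CON piglets it ranged from 345.7 to 526.2 CPM with a median of 472.8, and in SGA CON piglets from 490.1 to 577.4 CPM with a median of 511.2. In AGA HF piglets it ranged from 334.6 to 566.2 CPM with a median of 458.1, and in SGA HF piglets from 440.0 to 518.1 CPM with a median of 494.2. On CON 2 of 6 SGA piglets lay above all AGA piglets, and on HF none did, so the groups overlapped. The spread was wider in AGA piglets (SD 75.5 CPM, n = 12) than in SGA piglets (SD 36.4 CPM, n = 12), a difference that was not tested. The low values came from 3 AGA piglets: CON replicate 2, HF replicate 4 and HF replicate 6.

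The SGA littermate had more NEUROD2 in 8 of 12 litters, with a mean log2 difference of 0.17 ± 0.27 (SD). The exact sign-flip test over 12 litters gave p = 0.0552, two-sided, and between 0.0225 and 0.11 when each litter was left out in turn. In the edgeR fit the size effect was 0.16 (SE 0.048), with an adjusted p of 0.506, which did not pass. It passed with DESeq2 (0.16, SE 0.05, adjusted p = 0.335), beside 1.29% of all genes, and under some other edgeR settings, among them leaving out the library AGA CON replicate 2 (0.16, adjusted p = 0.31) or the litter HF replicate 3 (0.19, adjusted p = 0.139), where 2.35% and 7.75% of all genes passed. Across libraries NEUROD2 followed the excitatory neuron sum (r = 0.864, Spearman's rho = 0.843, n = 24, group means removed), and r was 0.817 without the 2 libraries farthest from the median sum. Within cohorts r was 0.941 and 0.845. The level of both comes from the same tissue piece and library, and the part of the neuronal share in the NEUROD2 difference was not tested.

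NEUROD1 (gene 397283) lies on chromosome 15 at chr15:96661749-96664352, plus strand, as 1 exon of 2604 bases, within the annotated span of OCA2 but sharing no exon bases with it. It ranged from 15.2 to 25.5 CPM in AGA CON (median 19.7), from 14.0 to 24.9 CPM in SGA CON (median 20.0), from 14.7 to 26.7 CPM in AGA HF (median 19.9) and from 14.7 to 25.6 CPM in SGA HF (median 19.0). The 4 groups overlapped almost fully. The SGA littermate was higher in 5 litters and lower in 7, with a mean of -0.05 ± 0.42 (SD, n = 12, exact sign-flip p = 0.704). The fitted size effect was 0.04 with an interval from -0.16 to 0.24, and its sign changed between settings.

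NEUROD1 and BHLHE22 were lower in cohort 2 than in cohort 1 over litter means. The mean of the 2 littermates for NEUROD1 was 19.9 to 23.0 CPM in the 6 litters of cohort 1 and 15.5 to 19.3 CPM in the 6 of cohort 2, with no overlap. The log2 difference was -0.28 (exact permutation test over litter means, two-sided, p = 0.00216, the smallest the design allows). BHLHE22 litter means were 27.6 to 35.3 CPM in cohort 1 and 22.2 to 28.6 CPM in cohort 2, a log2 difference of -0.33 (exact permutation p = 0.0108), with overlapping ranges. These p-values are 2 of 7 and are not adjusted. The share of all genes whose litter means separate the cohorts without overlap was not counted. The unadjusted edgeR p for cohort was 0.0105 for NEUROD1 and 0.00375 for BHLHE22, and 12.6% of all genes were under 0.05. In the edgeR fit across all genes, cohort 2 minus cohort 1 had an adjusted p of 0.2 for NEUROD1 and 0.127 for BHLHE22, so 0 of 7 members passed 0.05, beside 1.34% of all genes. Without sex in the model 1 member passed, BHLHE22 (-0.32, SE 0.083, edgeR, adjusted p = 0.0422), beside 1.63% of all genes. Microglia markers were also higher in cohort 2 (109.8 ± 16.5 CPM, SD, n = 12) than in cohort 1 (77.3 ± 32.9 CPM), and their part in the cohort difference was not tested. Between males and females 0 of 7 members passed FDR 0.05 (edgeR), beside 0.165% of all genes. Cohort 1 held more male than female litters and cohort 2 the reverse, so the exact tests over cohorts do not separate cohort from sex. BHLHE22 litter means were 0.24 higher in males in log2 CPM (exact permutation p = 0.0563, two-sided, not adjusted). With sex in the edgeR model the cohort difference of BHLHE22 was -0.27 (SE 0.085). The microglia sum averaged 80.8 CPM in males and 106.3 CPM in females.

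HES1 (gene 100499567), the Notch-responsive repressor, lies on chromosome 13 at chr13:140633207-140635734, plus strand, in 4 exon entries of 1564 bases. It ranged from 20.1 to 30.4 CPM in AGA CON (median 23.4), from 22.1 to 28.2 CPM in SGA CON (median 23.1), from 15.6 to 29.1 CPM in AGA HF (median 22.2) and from 18.9 to 25.3 CPM in SGA HF (median 23.0). The groups overlapped throughout. The SGA littermate was higher in 8 of 12 litters by a mean of only 0.02 ± 0.22 (SD, exact sign-flip p = 0.734), and the fitted size effect was 0.02, with an interval from -0.14 to 0.19. HF minus CON was -0.12 over litter means (exact permutation p = 0.284) and -0.11 in the fit, with an interval from -0.27 to 0.05.

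The ID inhibitors did not move together with size. ID2 (gene 654298) lies on chromosome 3 at chr3:135801813-135804261, minus strand, in 3 exon entries of 1282 bases. It ranged from 97.0 to 129.4 CPM in AGA CON (median 121.5), from 110.8 to 245.1 CPM in SGA CON (median 135.8), from 95.7 to 132.8 CPM in AGA HF (median 115.1) and from 117.7 to 140.5 CPM in SGA HF (median 125.3). The SGA CON range was stretched by replicate 6 at 245.1 CPM, and the next highest SGA CON piglet had 154.5 CPM. That library also had the highest sum of thalamus markers, 87.17 CPM against at most 77.96 CPM elsewhere. The sum rests mostly on PRKCD and TCF7L2, since LHX9 averaged 0.177 CPM. The library at 77.96 CPM, AGA HF replicate 6, had 114.7 CPM of ID2. SGA CON replicate 6 also had the second-lowest median r with the other libraries (0.9667). The part of its thalamus sum or its library similarity in its ID2 level was not tested.

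The SGA littermate had more ID2 in 9 of 12 litters, with a mean log2 difference of 0.21 ± 0.31 (SD). The exact sign-flip p was 0.0186, two-sided and not adjusted, 1 of 6 members tested this way. Leaving out each litter in turn gave an exact p between 0.00586 and 0.0371, and without CON replicate 6 the mean fell to 0.14 (p = 0.0371). In the edgeR fit, which also adjusts for the surrogate variables, the size effect was 0.12 (SE 0.064) with an interval from -0.01 to 0.26 and an adjusted p of 0.758, and with the replicate block it was 0.21 (SE 0.078) with an adjusted p of 0.486. ID2 therefore passed the test over litters taken by itself and did not pass the FDR threshold over all genes.

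**Figure D2:**
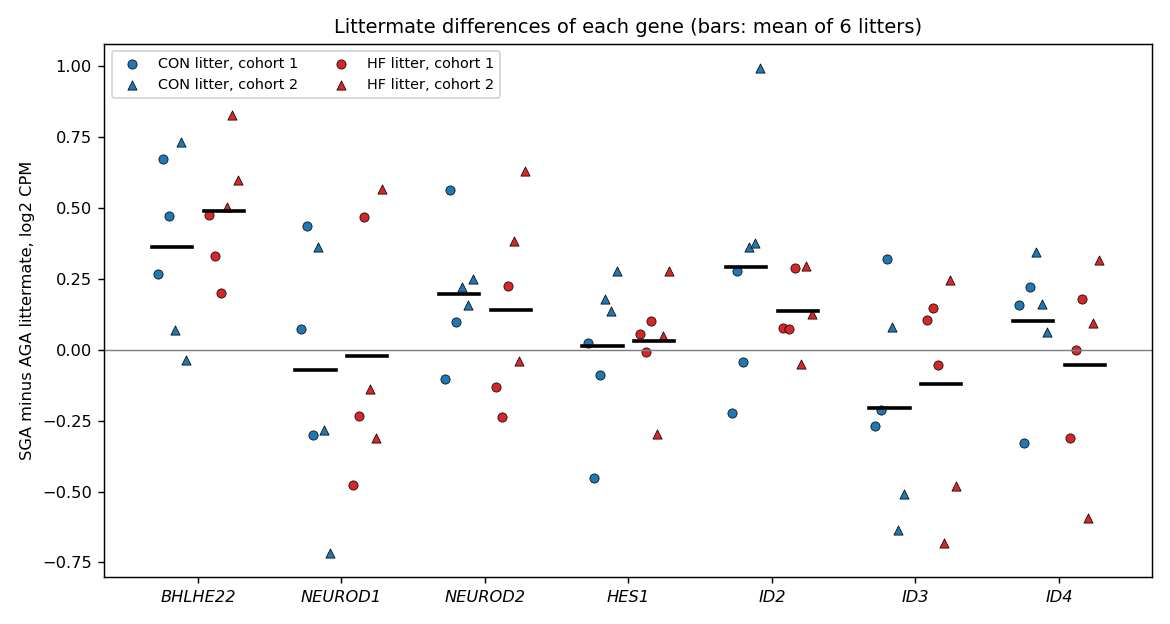
Log2 CPM of the SGA piglet minus that of its AGA littermate for each gene, by diet (blue, CON; red, HF) and cohort (circles, cohort 1; triangles, cohort 2), with a bar at the mean of 6 litters. BHLHE22 lies above 0 in 11 of 12 litters and ID2 in 9 of 12, with 1 CON litter of ID2 at 0.99, while NEUROD1 spreads from -0.72 to 0.57.

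ID3 (gene 100626978) is on an unplaced scaffold of Sscrofa10.2, at bases 11728 to 13697 on the minus strand, in 4 exon entries of 963 bases. It ranged from 19.1 to 32.3 CPM in AGA CON (median 22.8), from 12.2 to 27.9 CPM in SGA CON (median 21.4), from 19.9 to 38.8 CPM in AGA HF (median 22.8) and from 20.0 to 26.1 CPM in SGA HF (median 23.3). It was the single member with a negative fitted size effect, -0.13 (SE 0.094, edgeR, adjusted p = 0.854), and SGA littermates were lower in 7 of 12 litters (mean -0.16 ± 0.35, SD, exact sign-flip p = 0.14). It also had the largest fitted diet effect of the members, 0.21 (SE 0.095, interval 0.01 to 0.41), whose adjusted p of 0.709 did not pass. Over litter means HF minus CON was 0.14 (exact permutation p = 0.335). The difference was -0.11 in cohort 1 and 0.39 in cohort 2, in opposite directions (exact permutation p = 0.6 and 0.2, with 3 litters against 3, which cannot go below 0.1).

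ID4 (gene 100144508) lies on chromosome 7 at chr7:16178362-16181445, plus strand, in 3 exon entries of 2145 bases. It ranged from 109.2 to 183.3 CPM in AGA CON (median 120.7), from 118.2 to 159.7 CPM in SGA CON (median 137.6), from 107.1 to 191.6 CPM in AGA HF (median 130.3) and from 109.3 to 145.9 CPM in SGA HF (median 131.9). The 2 highest values belonged to AGA CON replicate 2 and AGA HF replicate 4, which had the 2 highest astrocyte marker sums, at 12650 and 12240 CPM. SGA littermates were higher in 8 of 12 litters with a mean of 0.03 ± 0.29 (SD, exact sign-flip p = 0.765). The fitted size effect was 0.14 (SE 0.059, edgeR, adjusted p = 0.665), but 0.03 (SE 0.074) with the replicate block. It was 0.01 without surrogate variables, 0.03 with 2 of them and 0.01 with cohort in their place. Without the library AGA CON replicate 2 it was 0.12 (SE 0.063), and without SGA HF replicate 4 it was 0.16 (SE 0.059).

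**Figure D3:**
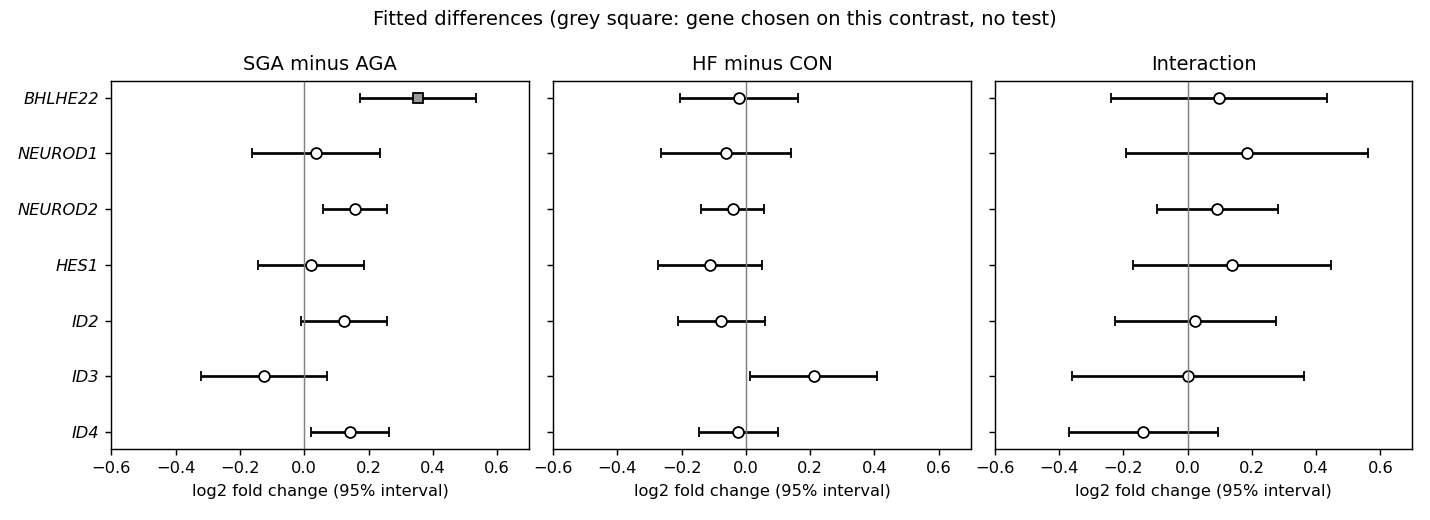
Fitted log2 fold changes with 95% intervals from the edgeR model of 4 groups, sex and 5 surrogate variables, for SGA minus AGA, HF minus CON and their interaction. The grey square marks BHLHE22 in the size contrast, at 0.35, as the gene chosen on that contrast and not tested in it. The interval of that square does not account for the choice. ID3 lies at -0.13 for size and 0.21 for diet.

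For diet, the interaction and diet in AGA or SGA, 0 of 7 members passed in edgeR, and for size on CON or HF 0 of the 6 members other than BHLHE22 did. The share of all genes that passed was 0.159% for diet, 0.049% for the interaction, 0.129% for size on CON, 0.288% for size on HF, 0.0674% for diet in AGA and 0.0919% for diet in SGA. These comparisons share samples, since each group enters 2 of the pairwise ones. At an unadjusted edgeR p under 0.05 there was 1 of 7 members for diet (ID3), beside 7.1% of all genes, and 0 for the interaction, diet in AGA and diet in SGA, beside 4.01%, 6.09% and 5.16%. Of the 6 members other than BHLHE22 there was 1 for size on CON (ID4) and 1 for size on HF (NEUROD2), beside 6.59% and 8.02% of all genes. limma-voom and DESeq2 also called 0 of these members in these 6 contrasts. The share of all genes that passed there was 0.00613% to 0.147% with limma-voom and 0.104% to 0.827% with DESeq2. Over the same 6 members the median log2 size effect was 0.08, beside -0.0023 over all genes, and 5 of 6 were above 0, beside 49.2% of all genes. Of these 5, NEUROD1, HES1 and ID2 had fitted intervals that also held negative values.

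The wider family and both signaling routes were described by lists. Of 34 other neural helix-loop-helix genes, 24 were tested, and edgeR called 0 for size in either direction (2 at an unadjusted p under 0.05, beside 10.6% of all genes), with a median log2 effect of -0.01. The smallest p belonged to TCF12, an E-protein partner of the NEUROD factors (-0.16, SE 0.053, adjusted p = 0.56), and to BHLHE40, a clock-related repressor (0.26, SE 0.103, adjusted p = 0.645). For diet they belonged to the Notch targets HEYL (-0.22, SE 0.09, adjusted p = 0.652) and HEY1 (0.17, SE 0.071, adjusted p = 0.667), again with 0 called by edgeR. DESeq2 called HEYL for diet in SGA piglets (-0.44, SE 0.133, adjusted p = 0.277), beside 0.19% of all genes.

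Of 27 Notch pathway genes 22 were tested and edgeR called 0 (4 at an unadjusted p under 0.05 for size, beside the same 10.6% of all genes), with a median size effect of 0.01. NUMBL, which encodes a Notch antagonist, had 0.15 (SE 0.05, adjusted p = 0.574), and the ubiquitin ligase gene DTX1 had 0.15 (SE 0.056, adjusted p = 0.608). For diet the smallest p were those of the receptor NOTCH2 (-0.47, SE 0.156, adjusted p = 0.564) and of DTX4 (-0.10, SE 0.053, adjusted p = 0.774). Of 20 BMP pathway genes 18 were tested and edgeR called 0 (1 at an unadjusted p under 0.05 for size, against 10.6% of all genes), with a median of -0.02. The co-receptor ENG had 0.16 (SE 0.073, adjusted p = 0.714) and the inhibitory SMAD7 had 0.18 (SE 0.085, adjusted p = 0.737) for size, while the BMP antagonist CHRD had 0.23 (SE 0.092, adjusted p = 0.645) and the ligand BMP4 had 0.17 (SE 0.087, adjusted p = 0.761) for diet. All of these are edgeR estimates on the log2 scale. DESeq2 and limma-voom also called 0 of the 66 listed genes for size, beside 1.29% and 0.325% of all genes.

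With the replicate block, 3 of the 66 listed genes tested passed for size, beside 2.57% of all genes. TCF12 was lower in SGA piglets (-0.26, SE 0.063, edgeR, adjusted p = 0.212), BHLHE40 was higher (0.35, SE 0.099, adjusted p = 0.318), and OLIG1, an oligodendrocyte lineage factor, was lower (-0.17, SE 0.049, adjusted p = 0.325). The summed oligodendrocyte markers were also lower in SGA littermates in 11 of 12 litters, and their part in the OLIG1 difference was not tested. HEYL passed under the block for size on CON (0.35, SE 0.091, adjusted p = 0.266) and for the interaction (-0.46, SE 0.13, adjusted p = 0.319), beside 1.26% and 0.276% of all genes.

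Across piglets the members did not vary as a single block. Correlations are given as descriptions over 24 libraries of log2 CPM with group means removed, in which littermates and cohorts are shared, and they carry no test. Of 21 pairs, 12 were positive and 9 negative. ID3 and ID4 had r = 0.616 (rho = 0.484), and r was 0.564 in cohort 1 and 0.629 in cohort 2. HES1 and ID4 had r = 0.585, but rho was 0.303 and r was 0.331 without the 2 libraries farthest from the median of HES1, so this relation rested in part on them. NEUROD2 and ID3 ran in opposite directions, with r = -0.614 (rho = -0.631), -0.552 in cohort 1 and -0.691 in cohort 2. BHLHE22 and NEUROD1 had r = 0.441 over all libraries, and 0.231 and 0.038 within cohorts.

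Each gene was also set beside the marker sums, of which the astrocyte sum mostly follows GFAP. NEUROD2 had r = -0.724 with the astrocyte sum, and -0.553 without the 2 libraries farthest from the median sum. ID4 had r = 0.75 with the astrocyte sum, but 0.437 without the 2 libraries farthest from the median sum, and 0.727 with the endothelial sum, where r without 2 libraries was 0.63. ID3 had r = 0.722 with the endothelial sum and 0.664 without 2 libraries. BHLHE22 had r = -0.607 with the microglia sum, and -0.442 and -0.14 within cohorts. For ID2 the largest r in either direction with the 15 marker sums was 0.484, with the thalamus sum.

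**Figure D4:**
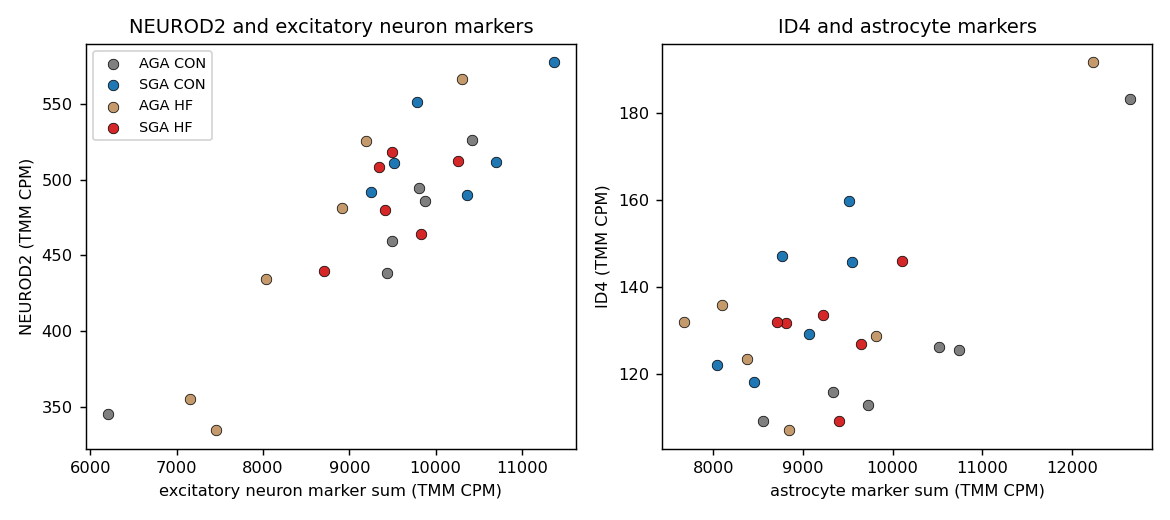
TMM CPM of NEUROD2 against the summed CPM of 5 excitatory neuron markers (left) and of ID4 against the summed CPM of 6 astrocyte markers, most of it GFAP (right), 1 point per piglet, coloured by group, with axes that do not start at 0. The lowest NEUROD2 values, 334.6 to 355.4 CPM, lie at the 3 lowest neuron sums, and the highest ID4 values, 183.3 and 191.6 CPM, at the 2 highest astrocyte sums.

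Among 9382 genes of at least 5 CPM with a symbol, the pattern most like NEUROD2 over the 24 libraries was that of HPCA, the hippocampal calcium sensor hippocalcin (r = 0.894), followed by NDUFA9 (0.868) and WSCD2 (0.858). The closest to ID4 were LMO2 (0.898), VSIR (0.854) and IER2 (0.835), and the closest to ID3 were CAPS (0.824), IRF8 (0.822) and BCAR3 (0.813). ID2 was most like ZNF385A (0.842), TTYH3 (0.829) and LHX2 (0.823), and HES1 was most like APPL2 (0.807), ATP1B2 (0.793) and DEGS2 (0.791). BHLHE22 and NEUROD1 had the lower leading values, with WNT9A (0.735), YWHAE (0.733) and CAP2 (0.723) for BHLHE22 and HECA (0.769), RRAGD (0.745) and OGFRL1 (0.745) for NEUROD1. In cohorts 1 and 2, r with BHLHE22 was 0.639 and 0.43 for WNT9A, 0.886 and 0.756 for YWHAE and 0.694 and 0.573 for CAP2. With NEUROD1 it was 0.64 and 0.802 for HECA, 0.291 and 0.891 for RRAGD and 0.687 and 0.707 for OGFRL1. These are the highest of many values and are descriptions.

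**Figure D5:**
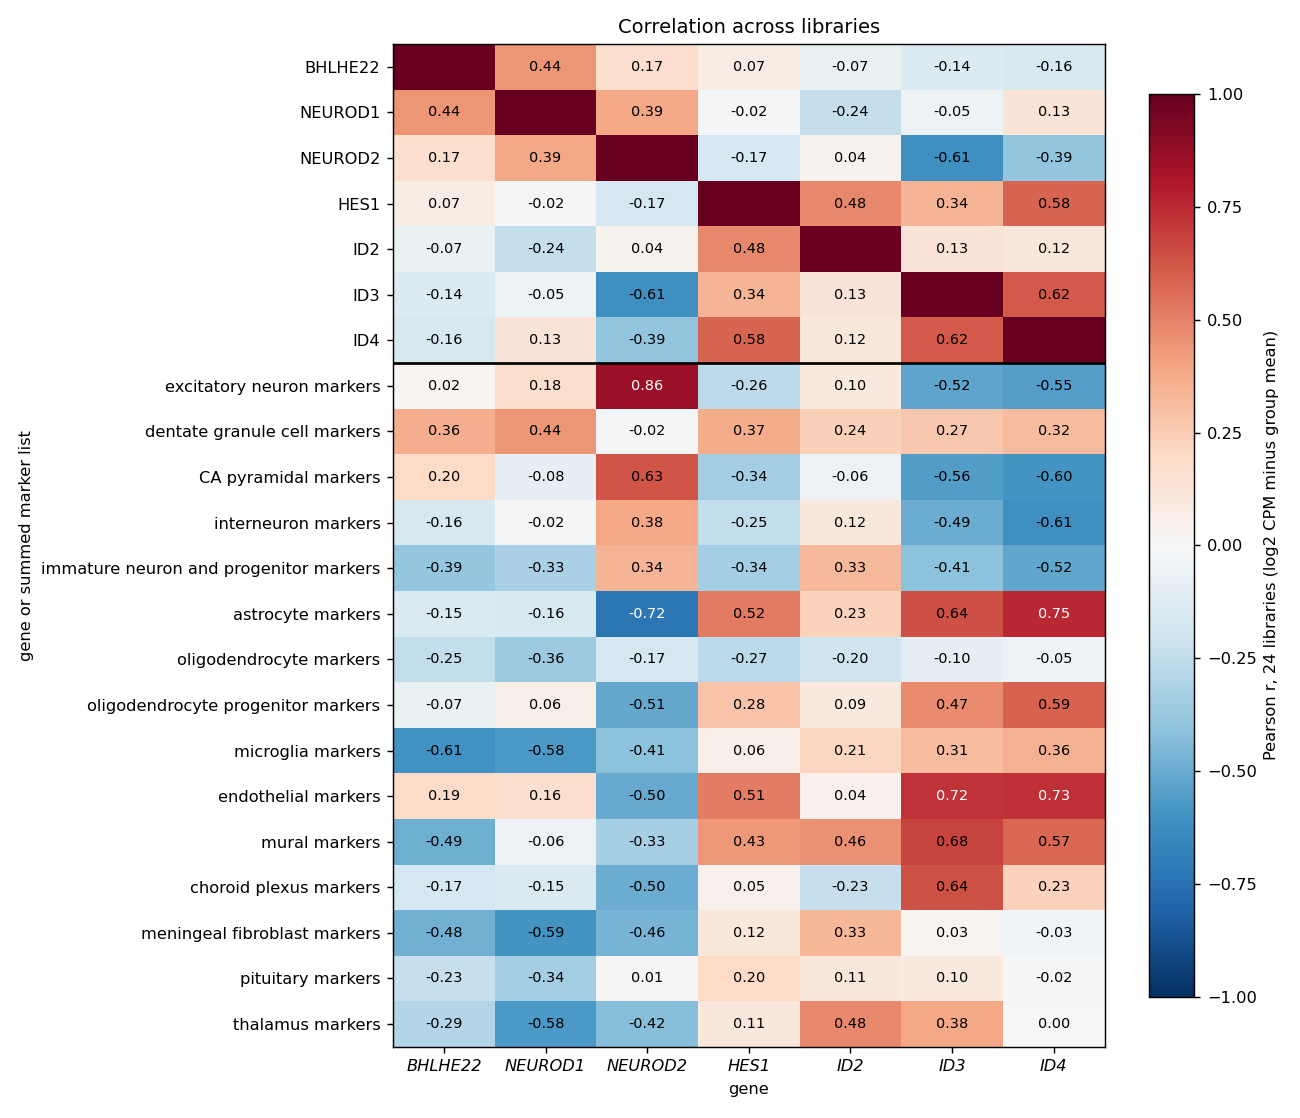
Pearson r over 24 libraries, after removal of group means from log2 CPM, between the 7 genes (above the line) and between each gene and 15 summed marker lists (below it), from -1 (blue) to 1 (red). NEUROD2 reaches 0.864 with excitatory neuron markers and -0.724 with astrocyte markers, whereas ID3 and ID4 are positive with astrocyte and endothelial markers.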

How the data were processed

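The authors trimmed single-end reads of polyA RNA with Trimmomatic 0.33, aligned them with STAR 2.5.2a to the pig build Sscrofa10.2 and counted reads on exons of Entrez genes with featureCounts of Subread 1.5.0, as the methods and the submitters' processing notes name them. They deposited whole-number counts per gene for each library, without filtering or normalization. An entry without identifier (0.613 to 1.62% of reads) was left out.

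Symbols were looked up by gene identifier in a name table built on Sscrofa11.1 (23036 of 38882 genes matched), and coordinates are those of the files. Chromosome numbers follow the majority of genes on each sequence in that table. Counts were fitted in R 4.3.3 with edgeR 4.0.16 (TMM, at least 1 CPM in at least 3 libraries, glmQLFit and glmQLFTest) on 4 groups, sex and 5 surrogate variables from sva 3.50.0. The Benjamini-Hochberg FDR covered 7 contrasts, and 0.4 was the threshold of the study's heat map. CPM for litter tests took log2 with a prior count of 2. DESeq2 1.42.0 and limma 3.58.1 (voom) were alternatives. The median SE of a log2 difference was 0.105 for size and 0.144 for pairwise contrasts, and the common biological coefficient of variation was 0.117. Floors of 3 counts cover counting error only.

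The labels name the litter and pair of each piglet, so same-numbered piglets of a diet were taken as paired, and the deviations of littermates from group means correlated at 0.154 on average (0.014 to 0.329, 12 pairs). The exact tests compared 12 litter differences or 6 against 6 litter means. The smallest p these allow are 0.000488 and 0.00216. The fits were also run on simulated counts. These held no litter or cohort structure, and their size effects were larger than those fitted for the members. They therefore do not show how the fits perform on effects of the members' size.

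The members, lists and tests were chosen with earlier results of these data known. All 9 members are named. From each pathway list, the 2 genes of smallest p for size and the 2 for diet are named, and for each member the 3 genes of highest r. Genes called with the replicate block and CAMK2A fall outside this rule and were named after their values were seen. BHLHE22 was chosen on the size contrast, so its size values are descriptions, and counts of members called for size that hold it are no test of it.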

Additional observations from a re-analysis of the deposited data

Results flagged for a closer look

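In each group of 6 piglets, the highest and the lowest library of each gene were compared with the nearest other library, relative to the range of the group. Dixon's 95% limit for 6 values was passed in 5 of 28 combinations of gene and group, and chance alone gives about 1 in 20. AGA CON replicate 2 was high for ID4 (183.3 CPM) and for HES1 (30.37 CPM), and this library also had the highest astrocyte marker sum of all (12650 CPM). AGA HF replicate 4 was high for ID4 (191.6 CPM), with an astrocyte sum of 12240 CPM. SGA CON replicate 6 was high for ID2 (245.1 CPM, the next at 154.5 CPM). This library had the highest thalamus marker sum (87.17 CPM, the next at 77.96 CPM) and the second-lowest median r with the other libraries (0.9667). AGA HF replicate 6, the library with the next thalamus sum, had 114.7 CPM of ID2. AGA CON replicate 5 was low for ID2 (97.0 CPM). The part of the marker sums and of library similarity in these values was not tested.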

How the results depend on the processing

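Counts of members called for size hold BHLHE22, which was chosen on that contrast, and are descriptions. Among all 7 members the number past the threshold for size was 1 (BHLHE22), beside 0.478% of all genes. They numbered 0 with at least 1 CPM required in 6 libraries, beside 0.276% of all genes, and 0 with 0 surrogate variables, beside 0.0796%. At FDR p under 0.05, in cohort 1 alone and in cohort 2 alone (12 libraries each, fitted without surrogate variables) the number was also 0, but there 0% of all genes passed. It was 2 with DESeq2, beside 1.29% of all genes, and 3 with the FDR taken within each contrast (BHLHE22, NEUROD2 and ID4), beside 7.35%. In the 2 settings chosen after seeing the data, the number was 2 without the library AGA CON replicate 2, beside 2.35% of all genes, and 0 without the library SGA HF replicate 4, beside 0.307%. When litters were left out in turn it ranged from 0 to 2, beside 0.086% to 7.75% of all genes, and was 0 without HF replicates 1, 5 or 6 or CON replicates 1, 3 or 5. For size on HF it was 0 in the fit reported, beside 0.288% of all genes. It was 1 with DESeq2 (beside 0.827%), with cohort in place of the surrogate variables (0.141%) and with the FDR within each contrast (1.44%). It was 2 without the library AGA CON replicate 2 (2.45%), and 0 to 2 over the litters left out (0.0184% to 6.81%). For size on CON it was 0 in the fit reported (beside 0.129%) and 0 to 2 over the litters left out (0.043% to 2.84%). For the interaction it was 0 in the fit reported (0.049%) and 0 to 1 over the litters (ID4 without HF replicate 3), beside 0.0184% to 2.05%. In the paired analysis, with the replicate block, the number was 1 for size on CON and 1 for size on HF, beside 1.26% and 0.888% of all genes. There 3 listed genes passed for size, beside 2.57% of all genes, against 0 as reported. The block changed no other count of members. For cohort, 1 member (BHLHE22) passed without sex as a term, beside 1.63% of all genes, against 0 with it, beside 1.34%. The cause was not tested.

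No call changed direction. The log2 size effects of NEUROD2, ID2 and ID3 kept their sign in 25 of 25 refits. That of BHLHE22 did so too, but these refits reuse the values it was chosen on and are no test. ID4 kept its sign in 24 of 25, NEUROD1 in 14 of 25 and HES1 in 19 of 25. At these depths the median SE over all genes, 0.105, limits what can be seen. The members' own SEs for size in the fit reported ran from 0.048 (NEUROD2) to 0.096 (NEUROD1). The fitted size intervals of NEUROD1, HES1, ID2 and ID3 held both negative and positive values, so that fit gives these members no direction. The interval of ID4 lay above 0 in that fit. Its size effect was only 0.01 without surrogate variables, 0.03 with 2 of them and 0.01 with cohort in their place.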
